A study of Mus musculus with 16 samples.

Results

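Nnt and 9 antioxidant enzyme genes of the mitochondria and cytosol were read in CA1, a subfield of the mouse hippocampus. The 10 genes are Nnt, Txn2, Txnrd2, Prdx3, Prdx5, Gpx1, Gpx4, Sod1, Sod2 and Cat, of 17986 genes with a value in all libraries, and each was found by its symbol as 1 row. Nnt was chosen by its measured difference between the genotype labels in these libraries, so its values for that comparison are given as a description with no test. The other 9 were chosen by function, with earlier results of these data known.

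Bulk RNA had been sequenced from male mice of 3 to 6 months on a C57Bl6 background, either labelled wild type or labelled N3 -/-, a deletion of Neil3, which encodes a DNA glycosylase of base excision repair. The home cage groups were taken from their cages untreated. Spatial exploration meant daily visits of 20 min to a square open field, 50 cm on a side, over 1 week, with death 20 min after the final visit. The home cage groups held 2 libraries per genotype label and the exploration groups 3, and 6 further samples of a learning condition (3 per label) were not analysed here. The substrain of the C57Bl6 background and the construction of the Neil3 allele are not given in the sources used here. Brains were frozen without perfusion, so blood RNA could be present, and CA1 was cut from sections of 8 µm with a laser.

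The targeted gene went against the labels. Neil3 stood at 0 to 0.05 FPKM (fragments per transcript length and library depth) across the 5 wild type labels, and at 8.35 to 15.22 FPKM across the 5 N3 -/- labels. The groups are therefore called WT-labelled and KO-labelled throughout, and every direction between them follows the labels as deposited. FPKM summed to 405718 to 431422 in the 4 home cage libraries and to 436171 to 466701 in the 6 exploration libraries. Estimated depth was 18000000 to 19150000 fragments per library. Summed CA1 pyramidal markers (9 of 9 genes detected) came to 801 to 978 FPKM over the 10 libraries, and astrocyte, oligodendrocyte and interneuron markers were also present in each, so the tissue held several cell types. In bulk RNA, fewer cells of a type and less RNA per cell cannot be told apart.

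Nnt encodes the nicotinamide nucleotide transhydrogenase of the inner mitochondrial membrane, which uses the proton gradient to make NADPH from NADH. Mitochondrial NADPH keeps the thioredoxin and glutathione systems reduced. In the matrix, thioredoxin reductase (Txnrd2) reduces thioredoxin (Txn2), which reduces the peroxiredoxins (Prdx3, Prdx5) that remove hydrogen peroxide, while glutathione peroxidases (Gpx1, Gpx4) use glutathione to reduce hydrogen peroxide and lipid peroxides. Superoxide dismutases of the cytosol (Sod1) and matrix (Sod2) supply the hydrogen peroxide from superoxide, and catalase (Cat) breaks it down, mostly in peroxisomes. Inbred C57BL/6 mice are known to differ at Nnt, since the J substrain carries a deletion of several of its exons and the N substrain does not. Gene-level FPKM cannot show which exons the reads covered.

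Levels per transcript length spread from about 5 to over 300 FPKM (means ± SD over all 10 libraries, n = 10). Gpx4 at 334 ± 71.0, Sod1 at 307 ± 33.6 and Prdx5 at 297 ± 28.5 FPKM stood highest and overlapped, so their order is not separated from the spread. Txn2 followed at 147 ± 12.2 FPKM, below every library of those 3. Gpx1 at 63.2 ± 10.9, Prdx3 at 49.6 ± 4.76 and Sod2 at 43.5 ± 1.65 FPKM formed a middle group in which each overlapped the next. Cat lay lower, at 15.4 ± 1.67 FPKM. Nnt, at 7.12 ± 2.49 FPKM, and Txnrd2, at 5.28 ± 0.642 FPKM, were the lowest, and they changed places between the labels. In WT-labelled libraries Nnt was above Txnrd2 in each library (8.49 to 10.14 against 4.67 to 6.14 FPKM), whereas in KO-labelled libraries the ranges crossed (4.05 to 5.44 against 4.60 to 6.03 FPKM).

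**Figure D1:**
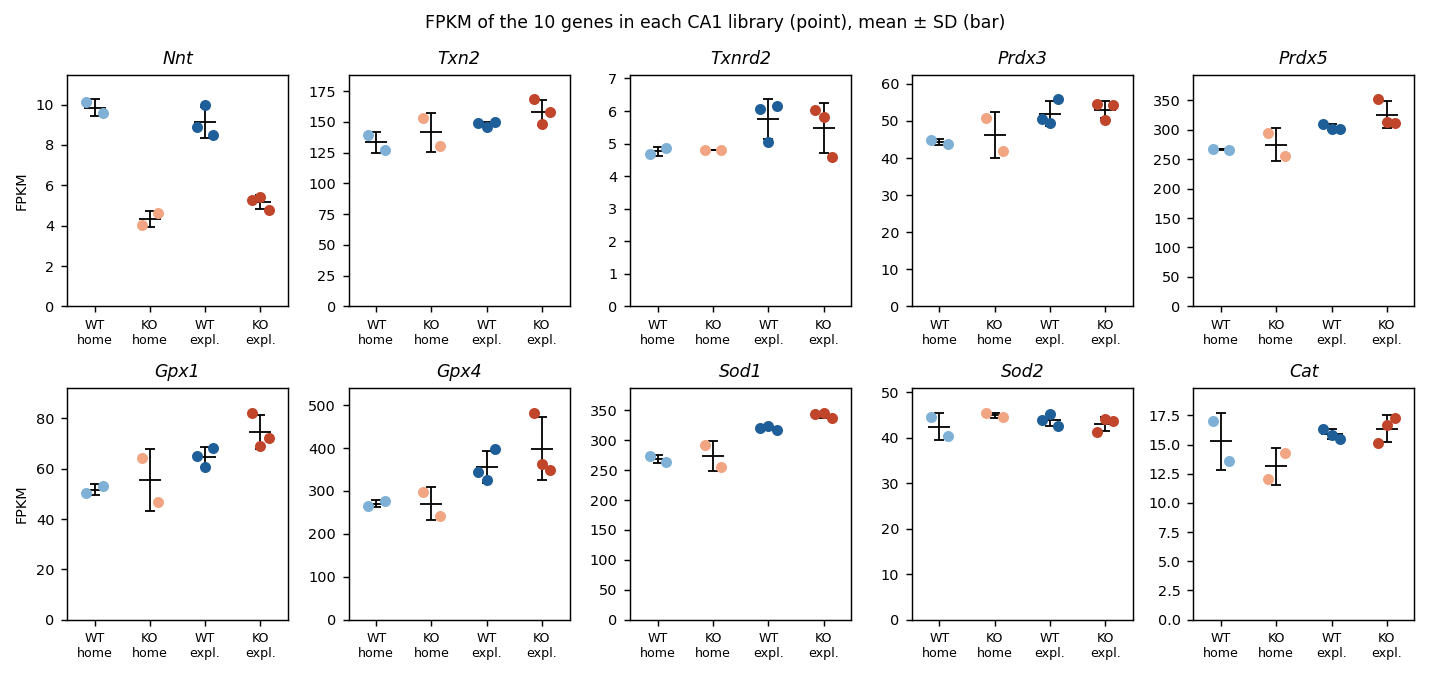
FPKM (vertical axes, starting at 0) of each of the 10 genes by group of genotype label and environment (horizontal axes), with 1 point per library and bars for the group mean ± SD (n = 2 or 3). Nnt separates by genotype label, with WT-labelled libraries at 8.49 to 10.14 and KO-labelled ones at 4.05 to 5.44, while Sod1 and Gpx4 are higher in the exploration groups under both labels.

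Nnt (gene ID 18115, GRCm38 chromosome 13, 119335527 to 119409257) was lower in every KO-labelled library than in any WT-labelled one. The WT-labelled home cage libraries had 10.14 and 9.56 FPKM, and the KO-labelled ones had 4.05 and 4.62. After exploration the WT-labelled libraries had 8.90, 9.97 and 8.49 FPKM, and the KO-labelled ones 5.26, 5.44 and 4.79. The groups did not overlap in either environment, as in 46.9% of all tested genes in the home cage and 24.9% after exploration. The lowest WT-labelled library was 1.56 times the highest KO-labelled one. Means were 9.41 ± 0.703 FPKM under the WT label and 4.83 ± 0.550 under the KO label (SD, n = 5 each), so the KO-labelled mean was 51.3% of the WT-labelled mean. The estimated 256 to 652 Nnt fragments per library gave a counting error of at most 6.25%.

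On the log2(FPKM + 1) scale, which understates changes of low genes, Nnt was lower by label with a difference of -1.03 (SE 0.11) in the home cage. The same difference was -0.71 (SE 0.09) after exploration and -0.87 (SE 0.07) averaged over environments. As ratios of mean FPKM these were 0.44 in the home cage and 0.566 after exploration. By size of the averaged difference Nnt ranked 27th of 11892 tested genes. With a pseudocount of 0.1 FPKM the 3 differences were -1.17, -0.81 and -0.99. Leaving out each library in turn kept them between -1.1 and -0.65.

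Whether the Nnt difference itself changed with environment was not separated from the spread. The gap was smaller after exploration by 0.31 (SE 0.14), with an unadjusted p of 0.0493 and an adjusted p of 0.309 (limma, Benjamini-Hochberg over all tested genes). Across all genes 0.875% passed that test, and none of the 10 did. Within the labels, Nnt was 0.10 lower after exploration in WT-labelled libraries (log2 change -0.10, SE 0.10, adjusted p = 0.583). In KO-labelled libraries it was 0.21 higher (SE 0.10, adjusted p = 0.138), and all 3 exploration libraries lay above both home cage ones. Under that label the environments did not overlap in 52.1% of all tested genes.

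The file listed 2 Nnt transcripts, NM_001308506 and NM_008710. Of these, the GRCm38 RefSeq gene table listed only NM_001308506. The deposited value is 1 per gene, so the share of each transcript could not be read.

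Genes beside Nnt on chromosome 13 had smaller differences, but Nnt was picked by its difference. This contrast is therefore a description and not a test. The 2 nearest tested genes on each side were Mrps30 and Fgf10, and Paip1 and 4833420G17Rik. Their averaged differences between the labels ran from -0.11 to 0.19 with a median of 0.07. In the home cage, after exploration and averaged, 0 of 4 passed the limma test, beside 3.57%, 0.597% and 2.13% of all tested genes. Paip1, which encodes a partner of poly(A)-binding protein and starts 0.0191 Mb beyond Nnt, had a difference of -0.07 (SE 0.11) in the home cage and 0.28 (SE 0.09, adjusted p = 0.161) after exploration.

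**Figure D2:**
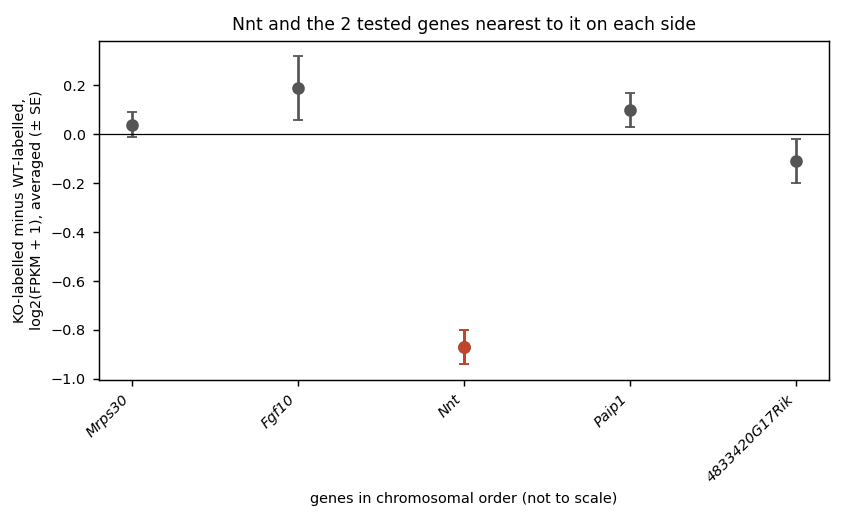
Difference between KO-labelled and WT-labelled libraries in log2(FPKM + 1), averaged over environments, for Nnt and the 2 tested genes on each side in chromosomal order (points with SE from limma, spacing not to scale). Nnt lies at -0.87 and the 4 neighbours lie between -0.11 and 0.19.

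The genes with a pattern nearest to Nnt were found by the root mean square difference between centred log2(FPKM + 1) values over the 10 libraries. For scale, the median gene of 11891 had a difference of 0.456 and Nnt itself deviated from its own mean by 0.433. Nearest was 1700047I17Rik2 at 0.139, with 16.15 to 17.22 FPKM in WT-labelled and 8.1 to 10.16 in KO-labelled libraries. Wdr17, which encodes a WD repeat protein, followed at 0.158, with 9.24 to 10.73 and 5.81 to 7.06 FPKM. 3300002P13Rik stood at 0.176, with 156.07 to 176.71 and 95.5 to 141.52 FPKM. Next came Efcab7 at 0.191, with 0.88 to 1.33 and 0.16 to 0.69 FPKM, and Ripply2 at 0.211, with 4.85 to 6.18 and 2.48 to 4.19 FPKM. In all 5 the labels did not overlap, which the choice by likeness to Nnt brings with it. None of the other 9 antioxidant genes was near: the closest was Cat, at rank 2466, with 0.408.

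None of the other 9 antioxidant genes passed the limma test between the genotype labels. In home cage libraries 0 of 9 were called at an adjusted p under 0.05, against 3.57% of all tested genes. After exploration 0 of 9 were called, against 0.597%, and averaged over environments 0 of 9, against 2.13%. Also 0 of 9 reached an unadjusted p under 0.05 in any of the 3 comparisons, where 18.3%, 17.2% and 20.2% of all tested genes did, and the smallest adjusted p-values were 0.402, 0.364 and 0.378. Medians of the 9 differences were 0.04, 0.09 and 0.06, beside -0.02, -0.01 and -0.01 over all tested genes. The 95% confidence intervals of the averaged differences lay between -0.25 and 0.33 on the log2 scale, so larger averaged differences of single genes were outside them.

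Neither gene of the thioredoxin pair passed the test. Txn2 (gene ID 56551, chromosome 15, 77915051 to 77928994) had home cage means of 133 ± 8.61 FPKM (n = 2) under the WT label and 141 ± 15.9 (n = 2) under the KO label. After exploration its means were 148 ± 1.86 and 158 ± 10.2 FPKM (n = 3 each), and the averaged log2 difference was 0.09 (95% interval -0.05 to 0.22). Txnrd2 (gene ID 26462, chromosome 16, 18426417 to 18479073) had 4.67 and 4.85 FPKM in WT-labelled and 4.81 and 4.80 in KO-labelled home cage libraries. Its averaged difference was -0.03 (-0.21 to 0.16), on only 156 to 218 estimated fragments per library. Both genes thus overlapped between the labels in each environment.

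The peroxiredoxins did not pass it either. Prdx3 (gene ID 11757, chromosome 19, 60864066 to 60874538), the matrix peroxiredoxin, ranged from 41.83 to 55.81 FPKM and had an averaged difference of 0.04 (95% interval -0.10 to 0.18). Prdx5 (gene ID 54683, chromosome 19, 6906697 to 6910106), found in mitochondria, peroxisomes and cytosol, had 267.35 and 265.46 FPKM in WT-labelled and 294.43 and 254.68 in KO-labelled home cage libraries. After exploration it had 310.33, 301.45 and 301.60 FPKM under the WT label and 351.34, 313.64 and 311.24 under the KO label. These exploration libraries did not overlap between the labels, yet the difference of 0.09 (SE 0.08) had an adjusted p of 0.553 in limma. Among the 9 genes, 3 (Prdx5, Gpx1 and Sod1) did not overlap between the labels after exploration, beside 24.9% of all tested genes. In the home cage 1 of 9 (Sod2) did not, beside 46.9%.

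The glutathione peroxidases varied most among libraries of 1 group. Gpx1 (gene ID 14775, chromosome 9, 108339080 to 108340342) had 50.17 and 53.19 FPKM in WT-labelled and 64.38 and 46.69 in KO-labelled home cage libraries. After exploration it had 64.93, 60.73 and 68.36 FPKM under the WT label and 82.30, 69.21 and 72.10 under the KO label, a difference of 0.20 (SE 0.11, adjusted p = 0.364). Gpx4 (gene ID 625249, chromosome 10, 80047166 to 80056439), which protects membranes from lipid peroxides, had 264.48 and 275.86 FPKM in WT-labelled and 297.00 and 242.82 in KO-labelled home cage libraries. Its exploration values were 344.43, 326.59 and 398.89 FPKM under the WT label and 482.60, 362.10 and 349.52 under the KO label. The first of these KO-labelled libraries stood well above the others. RefSeq lists the pseudogenes Gpx4-ps1 and Gpx4-ps2, so reads could have been split among near copies and the Gpx4 level is uncertain. The residual SD within groups on the log2 scale was 0.191 for Gpx4 and 0.16 for Gpx1, against 0.0556 for Sod2 and 0.0574 for Sod1.

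Superoxide dismutases and catalase did not pass the test between the labels either. Sod1 (gene ID 20655, chromosome 16, 90220762 to 90226333), the copper and zinc enzyme, had an averaged difference of 0.06 (SE 0.05, adjusted p = 0.57). Sod2 (gene ID 20656, chromosome 17, 13007839 to 13018119), the manganese enzyme of the matrix, was the steadiest, at 40.38 to 45.34 FPKM in all 10 libraries, and its averaged difference was 0.03 (SE 0.05, adjusted p = 0.791). Cat (gene ID 12359, chromosome 2, 103453904 to 103485153) had 17.02 and 13.57 FPKM in WT-labelled and 12.03 and 14.27 in KO-labelled home cage libraries, a difference of -0.20 (SE 0.12, adjusted p = 0.402). After exploration the Cat difference was 0.04 (SE 0.10, adjusted p = 0.866).

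**Figure D3:**
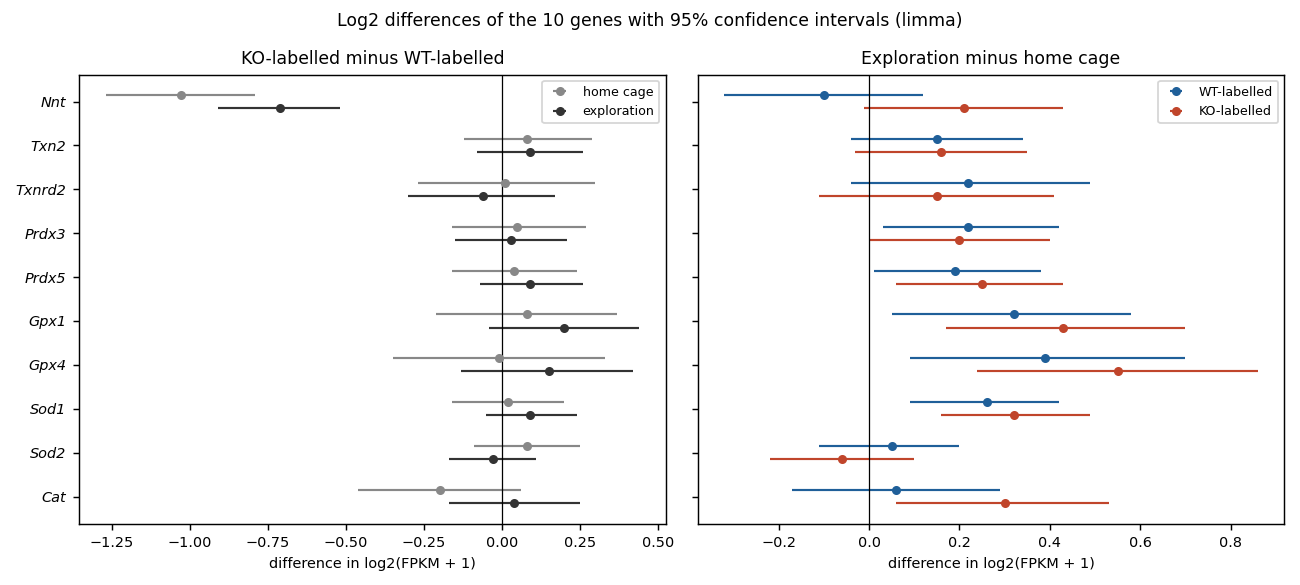
Differences in log2(FPKM + 1) of the 10 genes with 95% confidence intervals from limma (left: KO-labelled minus WT-labelled in each environment, right: exploration minus home cage under each label). Nnt alone lies apart on the left, at -1.03 and -0.71, and the intervals of the other 9 all include 0. On the right, the points lie to the right of 0 under both labels for all genes except Nnt and Sod2.

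Some markers of astrocytes and microglia moved with the genotype label in the home cage. Of all tested genes 3.57% were called between the labels in the home cage and 0.597% after exploration, in either direction. Summed astrocyte markers were 183 to 200 FPKM in WT-labelled and 276 to 321 in KO-labelled home cage libraries, with 3 of 11 genes called higher, and 220 to 285 against 267 to 312 after exploration. Summed microglial markers were 66 to 72.9 and 88.3 to 95.4 FPKM in the home cage (2 of 10 tested genes called higher), and 85.7 to 103 and 92.7 to 105 after exploration. Summed oligodendrocyte markers in the home cage were 151 to 179 FPKM under the WT label and 205 to 245 under the KO label, with 0 of 11 tested genes called. Endothelial and pericyte markers summed there to 35.9 to 36.9 FPKM under the WT label and 44.3 to 59.8 under the KO label. Of the 8 tested genes among them, 1 was called higher. Of 9 CA1 pyramidal markers, 1 was called higher and 1 lower in the home cage, and 1 lower after exploration. Choroid plexus markers were uneven among WT-labelled libraries. Under the WT label Ttr had 218.7 and 3.89 FPKM in the home cage and 118.06, 93.56 and 2.38 after exploration. Under the KO label it had 4.24 and 0.73 FPKM in the home cage and 0.23, 0.04 and 2.35 after exploration. The 2 tested choroid plexus genes were Ttr and Kl. In the home cage Kl had 14.7 and 13.74 FPKM in WT-labelled libraries and 9.83 and 8.61 in KO-labelled ones. Of these 2 genes, 1 was called lower by label in the home cage and 0 after exploration. No listed marker was at 0 in all libraries. The part of these cell types in the Nnt values was not tested.

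Between environments the antioxidant genes mostly stood higher after exploration. Each environment is held in its own table of the deposited file, so an effect of exploration and a difference between the tables cannot be told apart. In KO-labelled libraries 4 of 10 genes were called, all higher, where 12.0% of all tested genes were called higher and 28.6% in either direction. Gpx4 rose by 0.55 (SE 0.14, adjusted p = 0.0153) and Gpx1 by 0.43 (SE 0.12, adjusted p = 0.0225). Sod1 rose by 0.32 (SE 0.08, adjusted p = 0.01) and Prdx5 by 0.25 (SE 0.08, adjusted p = 0.0485). These are log2 changes from limma with Benjamini-Hochberg adjustment. In all 4 genes every KO-labelled exploration library exceeded both KO-labelled home cage libraries. The environments did not overlap in 7 of the 10 genes, beside 52.1% of all tested genes. Cat, at 0.30 (SE 0.11, adjusted p = 0.0562), missed the threshold, and Sod2 had a change of -0.06 (SE 0.07, adjusted p = 0.545). The median over the 10 genes was 0.23, beside -0.04 over all tested genes.

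In WT-labelled libraries 0 of 10 genes were called, where 2.02% of all tested genes were called higher and 6.31% in either direction. The same 4 genes had log2 changes of 0.39 for Gpx4 (SE 0.14, adjusted p = 0.121), 0.32 for Gpx1 (SE 0.12, adjusted p = 0.144), 0.26 for Sod1 (SE 0.08, adjusted p = 0.0662) and 0.19 for Prdx5 (SE 0.08, adjusted p = 0.205). Unadjusted p-values under 0.05 were reached by 5 of 10 genes, beside 22.7% of all tested genes, and in 7 of 10 the environments did not overlap, beside 47.8%. The median over the 10 genes was 0.21, beside -0.02 over all tested genes. The change was not shown to differ between the labels, since 0 of 10 genes passed the limma test of that difference.

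Sod1 had the smallest residual SD of the 4 genes that rose. Its home cage libraries had 273.17 and 263.87 FPKM under the WT label and 291.46 and 256.04 under the KO label. Its exploration libraries had 321.08, 324.48 and 316.81 FPKM under the WT label and 343.53, 345.26 and 337.39 under the KO label. All 6 exploration libraries thus lay above all 4 home cage libraries.

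The calls between environments depended on the libraries and on the fit. Without the second KO-labelled home cage library, which had the lower value of its pair for Gpx4, Gpx1, Sod1 and Prdx5, 0 of 10 genes were called in KO-labelled libraries, and the calls over all tested genes fell from 3400 to 505. With only the 2 groups compared in the fit, 1 of 10 genes (Gpx4) was called in KO-labelled libraries and 4 of 10 (Gpx4, Gpx1, Sod1 and Prdx5) in WT-labelled ones. Over the 7 other settings tried, the count ran from 1 to 6 in KO-labelled libraries and from 0 to 4 in WT-labelled ones. Nnt and Cat were each called in KO-labelled libraries in 2 of these 7 settings, including the removal of a length trend described below.

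Transcript length moved with the environment across the table. Tested genes under 1 kb (802 genes) had a median log2 change of 0.22 in WT-labelled and 0.24 in KO-labelled libraries, whereas genes over 2 kb (8379 genes) had medians of -0.07 and -0.10. Of the genes under 1 kb, 13.3% were called higher under the WT label and 34.4% under the KO label. Of the 194 genes that were also at a mean of at least 100 FPKM, 32% and 62.4% were called higher. The 4 genes that rose have the shortest transcripts of the 10, with 641 nt for Sod1, 944 nt for Gpx4, 1072 nt for Gpx1 and 1262 nt for Prdx5. Next in length come Txn2 with 1298 nt, Prdx3 with 1478 nt and Txnrd2 with 1905 nt. Under the KO label these 3 had adjusted p-values of 0.184, 0.118 and 0.361 in limma. Cat has 2613 nt, Nnt 3464 nt and Sod2 5861 nt.

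After the trend with length was taken out of each library, an alternative added after the data were seen, Sod1 had a change of 0.02 in KO-labelled libraries (adjusted p = 0.882) and -0.02 in WT-labelled ones. Gpx4 still passed in KO-labelled libraries, at 0.34 (adjusted p = 0.0216). Gpx1, at 0.25 (adjusted p = 0.0549), and Prdx5, at 0.10 (adjusted p = 0.213), did not. Under the same alternative Nnt, at 0.28 (adjusted p = 0.0336), and Cat, at 0.32 (adjusted p = 0.0483), were called, so 3 genes passed, of which only Gpx4 was among the 4 called without it. The differences of Nnt between the labels stayed at -1.03 in the home cage, -0.70 after exploration and -0.86 averaged.

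**Figure D4:**
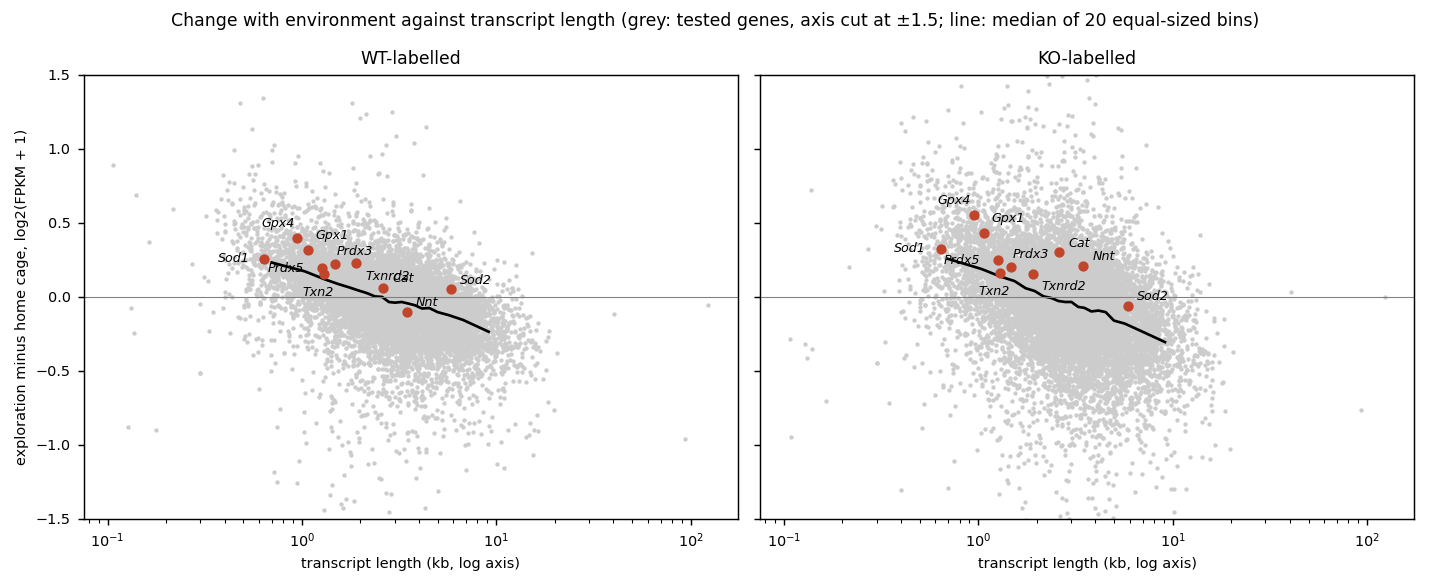
Change with environment (exploration minus home cage, log2(FPKM + 1), vertical axis) against transcript length in kb (log axis) for all tested genes with a length (grey, axis limited to 1.5 in both directions), with the median of equal-sized length bins (line) and the 10 genes (red). Sod1 lies close to the line under both labels, and Gpx4 and Gpx1 lie above it.

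Blood and other markers also moved with environment. Summed blood markers were 128 to 182 FPKM in the 4 home cage libraries and 197 to 342 in the 6 exploration libraries. Of 5 tested blood genes, 3 were called higher under the WT label and 2 under the KO label. Beside these and the counts below, 2.02% of all tested genes were called higher under the WT label and 12.0% under the KO label. In either direction the shares were 6.31% and 28.6%. Red blood cells are rich in several antioxidant enzymes. Markers of CA2, CA3 and dentate neurons summed to 141 to 153 FPKM in KO-labelled home cage libraries and 209 to 351 in KO-labelled exploration libraries, with 4 of 8 tested genes called higher. Under the WT label the sums were 146 to 304 and 222 to 248 FPKM, with 0 of 8 called. The 2 WT-labelled home cage libraries differed, with Pcp4 at 84.32 and 10.66 FPKM and Amigo2 at 16.11 and 1.78. Glial markers moved under the WT label, where 5 of 11 oligodendrocyte genes (median log2 change 0.51), 4 of 11 astrocyte genes (0.32) and 4 of 10 microglial genes (0.46) were called higher, against 0, 1 and 0 under the KO label. Of the 9 CA1 pyramidal markers 2 were called higher and 4 lower under the KO label, with a median of -0.31. The part of these cells in the changes was not tested.

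Upstream sequence was read for the genes that rose with environment. RefSeq (GRCm38.p6) gave windows of 250 bases before the start for 9 of the 10 genes, 12 windows in all. Letters of the antioxidant response element, which the stress factor NRF2 binds, were searched as TGACNNNGC on both strands, and those of the NRF1 motif, named for a factor of mitochondrial gene expression, as GCGCNTGCGC. Of 32851 windows 10.2% held the first and 3.74% the second. Among the 9 genes, Sod1 alone held the first and Gpx4 alone the second. Both windows are shown because these genes rose in KO-labelled libraries and carry a match, with the matched letters in capitals, which in both windows read as the motif on the reverse strand.
Sod1, chr16:90220512-90220761, plus strand: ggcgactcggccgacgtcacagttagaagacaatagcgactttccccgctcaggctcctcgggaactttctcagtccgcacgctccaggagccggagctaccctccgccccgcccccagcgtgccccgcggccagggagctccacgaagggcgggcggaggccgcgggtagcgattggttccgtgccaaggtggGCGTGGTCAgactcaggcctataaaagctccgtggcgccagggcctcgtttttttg
Gpx4, chr10:80053315-80053564, plus strand: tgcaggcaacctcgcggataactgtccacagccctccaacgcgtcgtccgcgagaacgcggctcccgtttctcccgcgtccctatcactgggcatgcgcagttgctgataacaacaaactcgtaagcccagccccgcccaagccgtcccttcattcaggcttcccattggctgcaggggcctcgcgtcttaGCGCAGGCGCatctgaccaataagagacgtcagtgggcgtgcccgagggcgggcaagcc
The Sod1 match lies 56 bases before the start and the Gpx4 match 59 bases before 1 of several starts of the gene. GGGCGG, the GC box, was in at least 1 window of 8 of the 9 genes, and 32.7% of all windows held it. For each motif a share of genes is unlike a share of windows, since Gpx4 has several windows and any could match. The windows of the 9 genes had 42.0% to 66.4% G and C, beside a median of 52.4%. A match of letters is a description and not a bound site.

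The wider set of redox genes was read from 8 lists of 139 genes, of which 137 were in the file and 126 were tested. Between the labels 1 was higher and 1 lower in the home cage (1.59%, beside 3.57% of all tested genes), and averaged over environments 1 was higher (0.794%, beside 2.13%). After exploration 0 passed (beside 0.597%), and 20 of 126 had an unadjusted p under 0.05 in limma (15.9%, beside 17.2%). Sesn1, which encodes a stress-induced sestrin, fell by label in the home cage, from 31.8 ± 2.54 to 22.2 ± 2.58 FPKM (SD, n = 2 each). Its log2 change was -0.50 (SE 0.11, adjusted p = 0.0334, limma). Sepp1, the selenium carrier selenoprotein P, rose from 30.3 ± 1.18 to 39.2 ± 2.74 FPKM in the home cage, by 0.36 (SE 0.09, adjusted p = 0.0459), and averaged over environments by 0.35 (SE 0.06, adjusted p = 0.0165). Both home cage calls were lost under several alternatives: without either WT-labelled home cage library the adjusted p-values were 0.246 and 0.0642 for Sesn1 and 0.276 and 0.111 for Sepp1. In the list of NADPH supply and related genes, 0 of 20 tested were called between the labels in any of the 3 comparisons. The medians were -0.08, -0.03 and -0.02.

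Between environments the shares of calls differed from list to list. Under the KO label 35 genes rose and 6 fell of 126, which is 32.5% in either direction and 27.8% higher, beside 28.6% and 12.0% of all tested genes. Calls in either direction ran from 0 of 4 for superoxide and copper genes and 8.33% of the NAD list to 47.6% of the selenoprotein list and 61.1% of the thioredoxin and peroxiredoxin list. Under the WT label 5 rose and 1 fell, which is 4.76% in either direction and 3.97% higher, beside 6.31% and 2.02%. The thioredoxin and peroxiredoxin list had the most calls under the KO label, with 10 higher and 1 lower of 18 and a median of 0.27. Msrb2, a mitochondrial methionine sulfoxide reductase, rose there from 34.0 ± 2.62 to 49.4 ± 4.48 FPKM (log2 change 0.52, SE 0.11, adjusted p = 0.00561). Sesn1 rose under the KO label by 0.64 (SE 0.10, adjusted p = 0.00211), and the low-level Msrb3 fell, with a change of -0.56 (SE 0.18, adjusted p = 0.0365).

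Glutathione genes were divided under the KO label, with 4 higher and 2 lower of 20. That is 30% in either direction, near the 28.6% of all tested genes. Gss, glutathione synthetase, rose by 0.42 (SE 0.12, adjusted p = 0.0241) and Glrx5, a mitochondrial glutaredoxin, by 0.41 (SE 0.10, adjusted p = 0.0146). The transferase gene Gsta4 had a change of -0.56 (SE 0.14, adjusted p = 0.0129) and Slc25a40, a mitochondrial glutathione carrier, of -0.46 (SE 0.14, adjusted p = 0.0318). In the list of NADPH supply and related genes 3 rose and 1 fell of 20 (20%). Mthfd1l rose by 0.58 (SE 0.15, adjusted p = 0.0162) and the mitochondrial isocitrate dehydrogenase Idh2 by 0.39 (SE 0.13, adjusted p = 0.0462). The mitochondrial malic enzyme Me3 had a change of -0.49 (SE 0.12, adjusted p = 0.0132).

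The remaining lists gave these named genes. The ferritin heavy chain gene Fth1 rose under the KO label from 2330 ± 451 FPKM (n = 2) to 3660 ± 118 (n = 3), by 0.66 (SE 0.12, adjusted p = 0.00351), and the light chain gene Ftl1 under the WT label by 0.40 (SE 0.08, adjusted p = 0.0147). Sirt3, the main mitochondrial deacetylase, rose under both labels, by 0.37 (SE 0.08, adjusted p = 0.0229) under WT and 0.39 (SE 0.08, adjusted p = 0.00624) under KO. Sdhd, a subunit of succinate dehydrogenase, rose by 0.35 (adjusted p = 0.019) and 0.67 (adjusted p = 0.00073), and Sucla2 of the citric acid cycle by 0.49 under KO (adjusted p = 0.00392). Mafk, a small partner of NRF2, rose under the KO label by 0.69 (SE 0.11, adjusted p = 0.00199). Atox1, a copper chaperone, rose under the WT label by 0.36 (SE 0.09, adjusted p = 0.0446), and the exporter gene Abcc1 fell there, with a change of -0.53 (SE 0.11, adjusted p = 0.0184).

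Selenoprotein genes gave 8 higher and 2 lower of 21 under the KO label. Selk rose by 0.52 (SE 0.10, adjusted p = 0.00469) under KO and by 0.40 (SE 0.10, adjusted p = 0.0371) under WT, and Sepw1 by 0.49 (SE 0.15, adjusted p = 0.0342) under KO. Sepn1 had a change of -0.70 (SE 0.11, adjusted p = 0.00225), and Eefsec, the elongation factor that brings selenocysteine to the ribosome, of -0.29 (SE 0.09, adjusted p = 0.0369). Gpx1, Gpx4 and Txnrd2 are selenoproteins too, and of these Gpx4 and Gpx1 were called under the KO label and Txnrd2, at 0.15 (adjusted p = 0.361), was not. Without the second KO-labelled home cage library, Sesn1, Mafk, Fth1, Sepn1, Sdhd and Sucla2 still passed among the genes named here for the KO label. After removal of the length trend, the genes named here from the lists that lost their call under the KO label were Sepw1 (0.22, adjusted p = 0.155), Idh2 (0.33, adjusted p = 0.119), Msrb3 (-0.47, adjusted p = 0.0527) and Eefsec (-0.26, adjusted p = 0.0509). Sdhd, at 0.52 (adjusted p = 0.000971), was among those that kept it. Under the WT label that removal ended the calls of Atox1 (0.05, adjusted p = 0.791), Ftl1 (0.21, adjusted p = 0.0794), Sdhd (0.21, adjusted p = 0.0596) and Abcc1 (-0.36, adjusted p = 0.0741). All 6 genes named for the WT label lost their call without the first and also without the second WT-labelled home cage library. Their fits without 1 library lost the call in 6 of 10 for Atox1 and Selk, 5 for Sirt3 and Sdhd, and 4 for Ftl1 and Abcc1.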

How the data were processed

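The authors deposited 1 table of gene-level FPKM in 2 blocks, for the exploration and the home cage libraries (19156 and 18257 genes), which were joined on gene ID. HISAT, StringTie, GATK, Bowtie2 and RSEM and the builds GRCm38 and mm10 are named in the submitters' processing notes, without roles or versions. Whether the blocks were normalized together, and whether strand was used, is not given in the sources used here, so overlapping and antisense genes are uncertain. Libraries were paired reads of 100 bp, per the labels' protocols. FPKM are not counts, so no count test was run.

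The 11892 genes that reached 1 FPKM in 2 or more libraries were fitted with limma 3.58.1 (R 4.3.3) on log2(FPKM + 1), all 10 libraries in 1 fit with 1 mean per group, a variance trend, and 6 residual and 5.71 prior degrees of freedom. P-values were adjusted (Benjamini-Hochberg) over all tested genes of each of 6 comparisons and called under 0.05. The fit was tested on simulated data. The design text speaks of animals, and p-values measure the spread between these libraries. Depth came from the spacing of low values and GENCODE transcript lengths, so fragment numbers are estimates and intervals on them cover counting error only.

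The members and lists were chosen with earlier results of these data known. Named genes were the 10 members, up to 2 called genes per list, comparison and direction, the 5 genes most like Nnt and its neighbours, of which the 2 nearest on each side are given where the rule named 5, because an item farther out is not reported here. The alternatives tried were no filter, a stricter one at 5 FPKM, a pseudocount of 0.1, median-of-ratios size factors, no variance trend, only the groups compared, leaving out each library, and, added after seeing the data, removal of a transcript length trend. The number of sample columns that matched no label was 0.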

Additional observations from a re-analysis of the deposited data

Results flagged for a closer look

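Sesn1 met the rule for a difference between environments. Its difference between the labels changed by 0.89 on the log2 scale (SE 0.14, adjusted p = 0.0496, limma interaction), from lower in KO-labelled home cage libraries (31.8 ± 2.54 against 22.2 ± 2.58 FPKM, n = 2 each) to higher after exploration (26.5 ± 1.94 against 35.0 ± 2.75 FPKM, n = 3 each). The call was lost in 6 of 10 fits that left out 1 library, with an adjusted p of 0.223 without the first WT-labelled home cage library and 0.194 without the second KO-labelled one.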

How the results depend on the processing

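No paired analysis was possible because the labels give the groups no shared replicate numbers. The count of 0 called genes among the 9 in each genotype comparison, and among the 10 for the difference between environments, stood under all alternatives. Leaving out 1 library gave 0 to 1 called genes in the WT-labelled comparison of environments (1, Sod1 in both home cage cases, without the first or second KO-labelled home cage library, and 1 without the first KO-labelled exploration library) and 0 to 6 in the KO-labelled one (0 without the second KO-labelled home cage library). With only the groups compared these counts were 4 and 1, and over the 7 other settings they ran from 0 to 4 and from 1 to 6. Where a fit kept 1 library in a group, that library was assumed to vary like the others. Over all tested genes, leaving out 1 library gave 13 to 588 calls in the home cage, 17 to 104 after exploration, 28 to 319 averaged, 84 to 1004 and 505 to 3568 between environments (WT and KO label), and 0 to 436 for the difference, and other settings gave 47 to 592, 16 to 171, 54 to 497, 478 to 1710, 1700 to 3503, and 0 to 264.

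Several changes of genes that were not called crossed 0. Without the length trend, Sod2 was at 0.01 between labels after exploration and 0.12 between environments (KO label), Sod1 at -0.02 between environments (WT label), and Txn2 at -0.00915 for the difference. With size factors, Sod2 between environments (KO label) was at 0.0011 and Prdx3 for the difference at 0.0059. Leaving out 1 library moved home cage label differences between these bounds: Txn2 -0.03 to 0.20, Txnrd2 -0.01 to 0.03, Prdx3 -0.08 to 0.19, Prdx5 -0.06 to 0.14, Gpx1 -0.14 to 0.31, Gpx4 -0.15 to 0.14 and Sod1 -0.07 to 0.12. After exploration they were Txnrd2 -0.14 to 0.04, Prdx3 -0.00258 to 0.08, Sod2 -0.05 to 0.00369 and Cat -0.000648 to 0.09. Averaged, they were Txnrd2 -0.06 to 0.03, Prdx3 -0.03 to 0.11, Gpx4 -0.00334 to 0.14 and Sod2 -0.00606 to 0.06. Between environments under the WT label, Sod2 moved from -0.02 to 0.12 and Cat from -0.09 to 0.21. For the difference, Txn2 moved from -0.11 to 0.12, Txnrd2 from -0.15 to 0.03, Prdx3 from -0.16 to 0.11, Prdx5 from -0.05 to 0.16, Gpx1 from -0.11 to 0.34 and Sod1 from -0.03 to 0.16. The cause was not tested.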
